A study of Homo sapiens with 4 samples.

Results

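The genes described here are 10 genes of H3K9 methylation and retroelement silencing: TRIM28, SETDB1, ATF7IP, MPHOSPH8, FAM208A, PPHLN1, MORC2, SUV39H1, SUV39H2 and EHMT2. They were chosen by name, as the gene features whose symbol is one of these, and make up 10 of the 40877 names of single genes that were counted. All 10 were counted in all 4 libraries and all passed the minimum of 100 counts in the higher library used below. The data are 5′ single-cell RNA-seq libraries of 2 human cancer lines, H1299 (non-small cell lung cancer) and HCT116 (colorectal cancer). Cultures of each line received either DMSO, the solvent, or the pair of decitabine (DAC, an inhibitor of DNA methyltransferases, 500 nM for 72 h) and SB939 (an inhibitor of histone deacetylases, 500 nM for 18 h), called DAC+SB or treated here; the DMSO libraries are the controls. Medium was renewed every 24 h and cells were at passage 5 to 10, per the labels. Each combination of line and treatment was 1 library, and neither compound was given alone in these libraries. A difference therefore has no replicate check, and the intervals given below are 95% intervals of counting error only. They take every count as independent, and would be too narrow if several counts came from the same molecule.

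TRIM28 (also called KAP1) is the corepressor that KRAB zinc finger proteins bring to retroelements and imprinted regions. It recruits SETDB1, which trimethylates lysine 9 of histone H3 (H3K9), and ATF7IP is the partner that stabilises SETDB1 in the nucleus. The HUSH complex consists of MPHOSPH8, whose chromodomain binds methylated H3K9, the scaffold FAM208A (now named TASOR) and PPHLN1 (periphilin), and it works with the ATPase MORC2 to silence young LINE-1 elements and integrated transgenes. SUV39H1 and SUV39H2 trimethylate H3K9 mainly in constitutive heterochromatin, and EHMT2 (G9a) dimethylates H3K9 in euchromatin together with EHMT1.

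Promoter sequence was taken for 3 of the genes because their values carried the main differences. SUV39H1 was much lower with treatment in both lines and MPHOSPH8 was higher in both. EHMT2 summed over its features went in opposite directions in the 2 lines, while its feature without a number was lower in both. Each sequence is the 250 bases before an annotated transcription start in RefSeq (GRCh38.p14), written 5′ to 3′ on the gene's strand, with CpG dinucleotides, the substrate of DNA methylation, in capitals. No methylation was measured here. SUV39H1 has 2 annotated starts in that table, at the sequences chrX:48695304-48695553 and chrX:48696484-48696733 (plus strand). The MPHOSPH8 sequence is chr13:19633409-19633658 (plus strand) and the EHMT2 sequence is chr6:31897699-31897948 (minus strand).
SUV39H1, first start: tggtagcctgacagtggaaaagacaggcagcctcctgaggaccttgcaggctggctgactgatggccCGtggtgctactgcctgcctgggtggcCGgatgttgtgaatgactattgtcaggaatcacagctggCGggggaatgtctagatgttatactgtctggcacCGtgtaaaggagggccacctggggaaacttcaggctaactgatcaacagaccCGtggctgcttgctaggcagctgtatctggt
SUV39H1, second start: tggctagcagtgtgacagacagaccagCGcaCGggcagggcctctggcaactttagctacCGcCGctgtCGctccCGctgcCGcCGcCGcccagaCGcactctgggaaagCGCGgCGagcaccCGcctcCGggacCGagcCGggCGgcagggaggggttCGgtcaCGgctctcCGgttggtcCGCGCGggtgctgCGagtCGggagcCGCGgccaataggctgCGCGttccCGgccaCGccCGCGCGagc
MPHOSPH8: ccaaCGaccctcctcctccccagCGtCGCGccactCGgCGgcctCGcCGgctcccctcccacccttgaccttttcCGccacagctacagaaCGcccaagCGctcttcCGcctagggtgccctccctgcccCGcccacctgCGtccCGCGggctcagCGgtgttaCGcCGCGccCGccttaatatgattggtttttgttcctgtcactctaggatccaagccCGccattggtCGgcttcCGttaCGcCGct
EHMT2: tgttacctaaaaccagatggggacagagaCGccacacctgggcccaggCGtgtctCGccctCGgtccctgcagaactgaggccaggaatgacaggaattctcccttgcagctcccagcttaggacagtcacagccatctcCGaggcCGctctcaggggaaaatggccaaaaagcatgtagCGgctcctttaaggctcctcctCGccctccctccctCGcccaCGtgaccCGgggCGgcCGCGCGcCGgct

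The first SUV39H1 sequence held 5 CpG and the second 35, whereas MPHOSPH8 held 26 and EHMT2 held 16. The sources used here do not tell which of the SUV39H1 starts gave the counts. In the RefSeq promoter table used, windows of 250 bases before to 50 bases after a start were matched for 9 of the 10 genes, 19 windows in all. Over all 35116 windows of this length the median was 14 CpG, and 11 of the 19 windows held more. SUV39H2 (44 CpG), 2 of the 3 FAM208A windows (43 each), the second SUV39H1 window (42), MORC2 (35), MPHOSPH8 (31) and EHMT2 (25) were among these 11. Motifs were searched on both strands and counted per window. The GC box GGGCGG was found in 8 of the 19 windows and in 45.0% of all windows. CCAAT was found in 10 of the 19, of which ATF7IP held 5, and in 34.6% of all windows. The ETS core CCGGAAG was found in 2 of the 19 (10.3% of all), the E2F sites TTTGGCGC and TTTCCCGC in 0 (2.27% of all) and TATAAA in 4 (11.5% of all).

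Counts were summed over each gene's features and scaled to 1000000 gene plus transposable element (TE) counts (CPM). The libraries held between 38927267 and 64524196 such counts, from 3578 to 4327 cells each, 15289 cells in all. The treated HCT116 library was the shallowest, with a median of 8449 counts per cell against 15784.5 to 17369.5 in the others, and 1086 of its 4327 cells had over 25% mitochondrial counts (88 to 364 cells elsewhere). TE made up 0.199% of counts in control H1299, 3.09% in treated H1299, 0.319% in control HCT116 and 5.56% in treated HCT116. The summed line markers were in the order of the labels, while single markers differed. The 10 H1299 markers summed to 2558 and 1276 CPM in H1299 (DMSO first) and to 115 and 320 CPM in HCT116. The 10 HCT116 markers summed to 0.604 and 21.7 CPM in H1299 and to 174 and 94.2 CPM in HCT116. Of the markers, NNMT and CDH11 had at most 7 counts in every library, and GRHL2 had 0 counts in both H1299 libraries. VIM gave 2282 of the 2558 CPM in control H1299, and COL6A1 was lower there (16.7 CPM) than in control HCT116 (27.9 CPM). Of the HCT116 markers, ESRP1, LGALS4 and TSPAN8 were higher in treated H1299 (2.92, 1.60 and 0.304 CPM) than in treated HCT116 (2.41, 1.08 and 0.077 CPM). A total of 131 cell barcodes were found in 2 libraries.

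The clearest difference among the 10 genes was in SUV39H1. Its level was 11.9 CPM (95% interval 11.03 to 12.7) in control H1299 and 2.39 CPM (2.02 to 2.80) in treated H1299, from 765 and 149 counts. In HCT116 it was 15.5 CPM (14.5 to 16.5) with DMSO and 2.59 CPM (2.11 to 3.15) with DAC+SB, from 968 and 101 counts. Both treated libraries thus lay far below both DMSO libraries, and the treated libraries of the 2 lines did not differ beyond counting error (log2 ratio of H1299 over HCT116 -0.12, interval -0.49 to 0.26). The log2 ratio of DAC+SB over DMSO was -2.31 (-2.58 to -2.06) in H1299 and -2.57 (-2.88 to -2.28) in HCT116, so 20.1% and 16.8% of the DMSO level was left. Of all genes compared, 0.212% in H1299 and 1.197% in HCT116 had a lower ratio. SUV39H1 was 1 of 24 genes, 0.190% of the 12644 compared in both lines, that were at least 4-fold lower in both.

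SUV39H2, the second enzyme of the same kind, was also lower with treatment, by less. Its level was 18.6 and 9.76 CPM in H1299 (DMSO first) and 20.3 and 12.0 CPM in HCT116. The log2 ratio was -0.93 (-1.07 to -0.79) in H1299 and -0.76 (-0.91 to -0.60) in HCT116. The difference between the 2 paralogs in that ratio, SUV39H1 minus SUV39H2, was -1.38 (-1.67 to -1.09) in H1299 and -1.82 (-2.15 to -1.48) in HCT116, so within each line the paralogs differed by more than counting error.

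**Figure D1:**
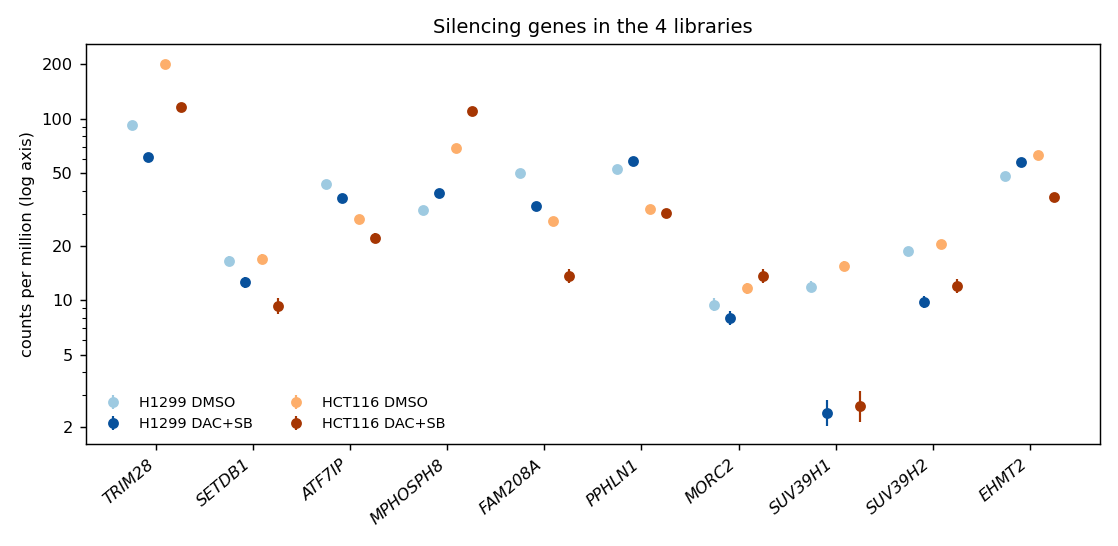
Levels of the 10 silencing genes in the 4 libraries, in CPM (log axis). Points are libraries and bars are exact Poisson 95% intervals, which cover counting error only. SUV39H1 lies between 11.9 and 15.5 CPM with DMSO and at 2.39 and 2.59 CPM with DAC+SB. EHMT2, summed over its features, is higher with DAC+SB in H1299 and lower in HCT116.

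Most S phase genes of a list of 20 were also below their DMSO level in the treated libraries, 19 in H1299 and 18 in HCT116. In each line 10 of the 20 were at least 2-fold lower with DAC+SB, beside 7.34% of all genes in H1299 and 20% in HCT116. Their sum was 1591 CPM with DMSO and 817 CPM with DAC+SB in H1299, and 1673 and 887 CPM in HCT116. The 6 largest differences in H1299 were those of MCM3 (log2 ratio -1.65), MCM5 (-1.63), MCM2 (-1.24) and MCM4 (-1.24), subunits of the replicative helicase, TYMS (thymidylate synthase, -1.38) and UHRF1 (which recruits DNMT1 to newly copied DNA, -1.28). Those in HCT116 were TYMS (-2.56), UHRF1 (-2.13), MCM5 (-2.03), MCM2 (-1.96), MCM7 (-1.63) and MCM3 (-1.56). The exceptions, named after their values were seen, were SLBP, the histone mRNA stem-loop binding protein (0.32 in H1299 and 0.15 in HCT116), and FEN1, the flap endonuclease, in HCT116 (0.55). Of 20 G2/M genes, 0 in H1299 and 11 in HCT116 were at least 2-fold lower, with sums of 2639 and 1970 CPM in H1299 and 2362 and 1305 CPM in HCT116. In HCT116 the 6 largest G2/M differences were those of BUB1B (-1.62), PLK1 (-1.55), KIF11 (-1.51), TPX2 (-1.42), CCNA2 (-1.35) and CCNB2 (-1.31). CDC20, the activator of the anaphase-promoting complex, was above its DMSO level in both lines (0.69 in H1299 and 0.52 in HCT116), as was NUSAP1 in H1299 (0.09); both were named after their values were seen. The part of either list in the SUV39H1 result was not tested. SUV39H1 was also measured in cells split by the G2/M list, a split chosen after seeing the data; cells were not split by S phase counts. Cells were first reduced at random to 3300 counts, which left out 402 treated HCT116 cells. Most G2/M genes were below their DMSO level with treatment, so the same cut need not take like cells. In H1299 915 treated and 1186 control cells had 10 or more counts of that list, and in HCT116 349 and 1082. Besides SUV39H1, only ATF7IP, PPHLN1 and MORC2 are given by this split. Among cells with under 10 counts of that list, the SUV39H1 log2 ratio was -2.002 (-2.76 to -1.30) in H1299 and -2.72 (-3.41 to -2.09) in HCT116. Among cells with 10 or more it was -1.16 (-1.95 to -0.43) and -2.03 (-3.52 to -0.84), the last from 6 DAC+SB counts. The genes whose 4 levels followed SUV39H1 most closely among 10236 genes, by distance between log2 levels centred on each gene, were UNG, the uracil DNA glycosylase (distance 0.226), IFRD2 (0.280) and ZFP36L1 (0.441), an RNA-binding protein. UNG stood at 50.8 and 9.59 CPM in H1299 (DMSO first) and at 54.9 and 9.33 CPM in HCT116.

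TRIM28 was lower with treatment in both lines and higher in HCT116 than in H1299 under both treatments. It stood at 92.3 CPM (90.0 to 94.7) in control H1299, 61.5 CPM (59.6 to 63.5) in treated H1299, 202 CPM (199 to 206) in control HCT116 and 116 CPM (113 to 119) in treated HCT116. The order of the libraries was thus control HCT116, treated HCT116, control H1299, treated H1299, with no overlap of the intervals. The log2 ratio of DAC+SB over DMSO was -0.59 (-0.65 to -0.53) in H1299 and -0.80 (-0.85 to -0.75) in HCT116. In H1299 21.2% of all genes, and in HCT116 26.8%, had a lower ratio. In HCT116 the median of all genes was itself -0.23, and relative to it TRIM28 was at -0.57. The 3 genes with the most similar levels over the 4 libraries were NAA16 (distance 0.075), GGA2 (0.090) and TIAL1 (0.099).

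SETDB1 was at 16.5 CPM in control H1299, 12.6 CPM in treated H1299, 16.9 CPM in control HCT116 and 9.27 CPM in treated HCT116. The 2 DMSO libraries did not differ beyond counting error (log2 ratio -0.03, interval -0.16 to 0.09), and both treated libraries were lower. Its log2 ratio with treatment was -0.39 (-0.53 to -0.26) in H1299 and -0.86 (-1.04 to -0.69) in HCT116. In HCT116 this equals -0.63 relative to the median of all genes. The numbered feature of SETDB1, described further on, had 126 counts in control H1299 and was not listed in treated H1299, and the H1299 ratio without it was -0.21 (-0.35 to -0.07). Its partner ATF7IP was at 43.9, 36.6, 28.0 and 22.0 CPM in the same order, and its ratios were -0.26 (-0.34 to -0.18) and -0.35 (-0.47 to -0.23) in log2. The HCT116 value of ATF7IP was -0.12 relative to the median of all genes and -0.17 as a mean over cells, and 45.1% of all genes had a lower ratio. It joins features of opposite direction, 0.43 for the numbered one and -0.76 for the other. ATF7IP was also measured in cells split and thinned as for SUV39H1, a split chosen after seeing the data. In H1299 its ratio was -0.79 (-1.12 to -0.46) in cells with 10 or more G2/M counts. In H1299 cells under 10 it was 0.13 (-0.10 to 0.37), within counting error. In HCT116 these were -0.31 (-0.91 to 0.25) and -0.24 (-0.50 to 0.02), both within counting error. Over all cells of H1299 the ratios of SETDB1 and ATF7IP differed by -0.13 (-0.28 to 0.03), no more than counting error. In HCT116 they differed by -0.51 (-0.72 to -0.30). On features without a number the difference was 0.10 (-0.07 to 0.26) in H1299, with the sign turned, and -0.25 (-0.49 to -0.004) in HCT116. TRIM28 and SETDB1 differed in their ratios by -0.20 (-0.34 to -0.05) in H1299 and by 0.06 (-0.12 to 0.24) in HCT116. On features without a number these were -0.38 (-0.53 to -0.23) and 0.21 (0.007 to 0.40).

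FAM208A differed from the other HUSH subunits in its response to treatment in the summed counts. MPHOSPH8 was higher with treatment in both lines, at 31.4 CPM in control H1299, 39.1 CPM in treated H1299, 69.5 CPM in control HCT116 and 111 CPM in treated HCT116. Its log2 ratio was 0.32 (0.23 to 0.40) in H1299 and 0.68 (0.61 to 0.74) in HCT116. FAM208A summed over its features was lower in both, at 50.3, 33.1, 27.3 and 13.6 CPM in the same order, with log2 ratios of -0.61 (-0.69 to -0.53) and -1.01 (-1.15 to -0.87). PPHLN1 was at 53.0, 58.4, 32.0 and 30.1 CPM. Its log2 ratio was 0.14 (0.07 to 0.21) in the H1299 libraries and -0.08 (-0.19 to 0.02) in the HCT116 ones. The HCT116 value was not distinguishable from 0 at this depth, and relative to the median of all genes it was 0.15. PPHLN1 was also measured in cells split and thinned as for SUV39H1, a split chosen after seeing the data. In H1299 its ratio was 0.41 (0.13 to 0.69) in cells with 10 or more G2/M counts. In H1299 cells under 10 it was -0.05 (-0.25 to 0.15), within counting error. In HCT116 these were 0.37 (-0.13 to 0.86) and -0.13 (-0.38 to 0.11), both within counting error. Over all cells the ratio of MPHOSPH8 exceeded that of FAM208A by 0.92 (0.81 to 1.04) in H1299 and by 1.68 (1.53 to 1.84) in HCT116. That of PPHLN1 exceeded that of FAM208A by 0.75 (0.64 to 0.85) and 0.92 (0.75 to 1.10). MPHOSPH8 exceeded PPHLN1 by 0.18 (0.07 to 0.28) in H1299 and by 0.76 (0.64 to 0.88) in HCT116. On numbered features these were -0.008 (-0.20 to 0.18), within counting error, and 0.998 (0.80 to 1.19). In H1299 the order of the others against FAM208A turned with the features counted. On numbered features alone FAM208A was itself higher with treatment (0.54), and MPHOSPH8 minus FAM208A was -0.28 (-0.50 to -0.06) and PPHLN1 minus FAM208A -0.28 (-0.49 to -0.06). In HCT116 both differences stayed above 0 on numbered features, at 1.41 (1.12 to 1.69) and 0.41 (0.09 to 0.73).

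MORC2 had few counts, between 495 and 727 per library. It stood at 9.44 CPM (8.70 to 10.2) in control H1299, 7.93 CPM (7.25 to 8.66) in treated H1299, 11.6 CPM (10.8 to 12.5) in control HCT116 and 13.6 CPM (12.4 to 14.8) in treated HCT116. With treatment its log2 ratio was -0.25 (-0.43 to -0.08) in H1299 and 0.22 (0.06 to 0.39) in HCT116. Relative to the median of all genes these were -0.18 and 0.46, and as a mean over cells the H1299 value was -0.11.

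EHMT2 also went in opposite directions in the 2 lines. It was at 48.5 CPM (46.8 to 50.2) in control H1299 and 57.9 CPM (56.1 to 59.9) in treated H1299. In HCT116 it was at 63.3 CPM (61.4 to 65.3) with DMSO and 37.0 CPM (35.2 to 39.0) with DAC+SB. The log2 ratio was 0.26 (0.19 to 0.33) in H1299 and -0.77 (-0.86 to -0.69) in HCT116. The difference between the lines was 1.03 (0.92 to 1.14). The median difference over 12644 genes was 0.16, and 85.3% of them had a lower difference than EHMT2. The direction in H1299 depended on which features of the gene were counted, as described next.

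The gene table lists some genes under several features, of which some carry a number after the gene name. The sources used here do not give the meaning of the number, and no numbered feature with fewer than 10 counts was listed in any library. TRIM28 and MORC2 had no numbered feature listed in any library, and the other 8 members had one. The EHMT2 numbered feature had 584 counts in control H1299 and 1588 in treated H1299, a log2 ratio of 1.49 (1.35 to 1.63), above 91.6% of numbered features. The EHMT2 feature without a number had 2546 counts with DMSO and 2029 with DAC+SB, for a ratio of -0.28 (-0.36 to -0.20) in log2. The share of EHMT2 counts in the numbered feature was thus 18.7% in control H1299 and 43.9% in treated H1299, and 55.6% and 60.5% in HCT116. In HCT116 both kinds of EHMT2 feature were lower with treatment, at -0.65 (-0.77 to -0.54) for the numbered one and -0.94 (-1.08 to -0.81) for the other.

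**Figure D2:**
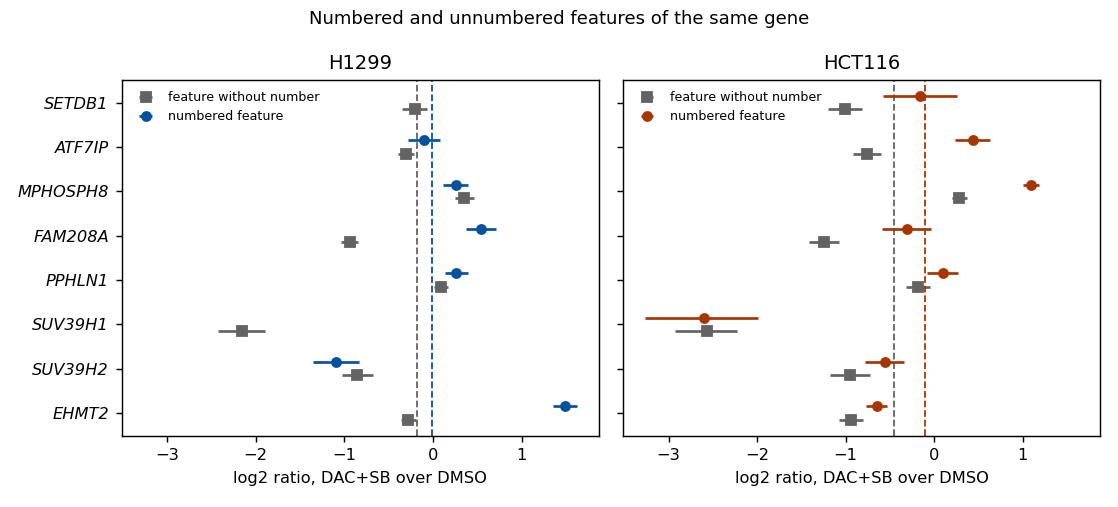
Log2 ratio of DAC+SB over DMSO for the numbered feature (circles) and the feature without a number (squares) of the 8 members that have both, with 95% counting intervals. Dashed lines are the medians of all features of that kind. EHMT2 in H1299 shows the widest gap, 1.49 against -0.28; the numbered features of SETDB1 and SUV39H1 were not listed in treated H1299 and have no point there.

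FAM208A showed a gap of the same direction in H1299, with 0.54 (0.37 to 0.71) for its numbered feature and -0.94 (-1.03 to -0.85) for the other. In HCT116 both of its features were lower, with -0.31 (-0.59 to -0.04) and -1.24 (-1.41 to -1.07). MPHOSPH8 in HCT116 was at 1.09 (1.00 to 1.18) for the numbered feature and 0.28 (0.19 to 0.37) for the other, both higher. ATF7IP in HCT116 was at 0.43 (0.23 to 0.63) for the numbered feature and -0.76 (-0.91 to -0.61) for the other, so that its summed ratio joined opposite directions. Over all features the medians in HCT116 were -0.10 for numbered features and -0.46 for the others, and in H1299 they were -0.01 and -0.18. For SUV39H1 the kinds gave nearly the same value in HCT116, -2.60 and -2.57. In H1299 its feature without a number was at -2.16 (-2.42 to -1.90), and the numbered one had 79 counts with DMSO and was not listed with DAC+SB.

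Past a 2-fold difference, 1 of the 10 members was lower in H1299 (SUV39H1) and 0 were higher. Of the 14610 genes compared there, 7.34% were at least 2-fold lower and 18.3% at least 2-fold higher. In HCT116, 2 of the 10 were lower (SUV39H1 and FAM208A) and 0 higher, beside 20% lower and 16.2% higher of 13539 genes. The members' counts were thus near the background of lower genes in HCT116, and FAM208A lay at the edge, 2.01-fold lower. The median log2 ratio of the members was -0.33 in H1299, against -0.07 over all genes, and -0.77 in HCT116, against -0.23. In each line 7 of the 10 members lay below the median of all genes. Summed over the 10 genes the level was 376 CPM (371 to 381) in control H1299, 319 CPM (315 to 324) in treated H1299, 487 CPM (481 to 492) in control HCT116 and 367 CPM (361 to 373) in treated HCT116. Without TRIM28, the member with the most counts, the sums were 283, 258, 284 and 251 CPM, so that the lines were nearly equal under each treatment.

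**Figure D3:**
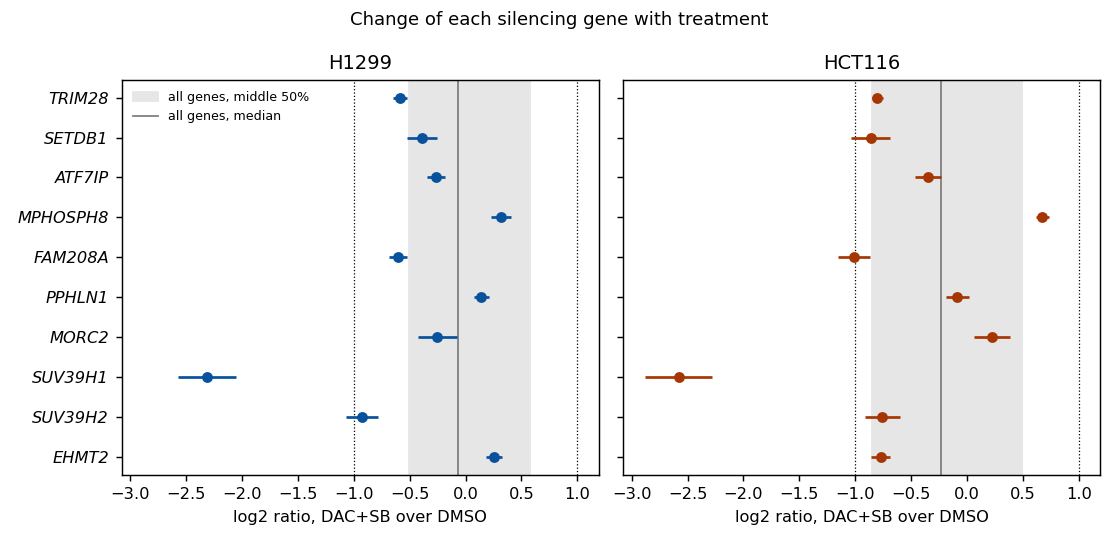
Log2 ratio of DAC+SB over DMSO for each of the 10 genes in H1299 (left) and HCT116 (right), with exact 95% counting intervals. The grey line and band are the median and middle 50% of all genes compared, and dotted lines mark a 2-fold difference. SUV39H1 lies at -2.31 and -2.57, and MPHOSPH8 lies above the median of all genes in both lines.

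Between the lines, with DMSO, 2 members were at least 2-fold lower in H1299 than in HCT116 and 0 were at least 2-fold higher, beside 15.2% and 20.5% of all genes. These were TRIM28 (log2 ratio -1.13, interval -1.18 to -1.09) and MPHOSPH8 (-1.15, -1.22 to -1.07). FAM208A (0.88, 0.80 to 0.97), PPHLN1 (0.73, 0.65 to 0.81) and ATF7IP (0.65, 0.56 to 0.73) were higher in H1299 by less than 2-fold. With DAC+SB, MPHOSPH8 was at least 2-fold lower in H1299 (-1.51, -1.58 to -1.43) and FAM208A at least 2-fold higher (1.28, 1.14 to 1.42), beside 12.1% and 25.4% of all genes. The median of all genes was 0.11 with DMSO and 0.29 with DAC+SB, so MPHOSPH8 was at -1.25 and -1.80 relative to it and FAM208A at 0.77 and 0.99. Under both treatments FAM208A and PPHLN1 were thus higher in H1299, and MPHOSPH8 was higher in HCT116. The EHMT2 numbered feature was lower in control H1299 than in control HCT116 by a log2 ratio of -1.96 (-2.09 to -1.83), while the other EHMT2 feature was higher there (0.49, 0.40 to 0.58).

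A list of 28 other genes of H3K9 methylation and heterochromatin was compared with the members. 3 of the 28 were at least 2-fold lower in the treated H1299 library and 0 were at least 2-fold higher, beside 7.34% and 18.3% of all genes. The 3 were CBX5 (HP1 alpha, which binds trimethylated H3K9, -1.18), WIZ (a partner of EHMT1 and EHMT2, -1.10) and HELLS (a chromatin remodeller needed for DNA methylation of repeats, -1.04). In HCT116, 9 were lower and 1 higher, beside 20% and 16.2% of all genes. WIZ (-1.62) and ATRX (a remodeller that deposits histone H3.3 with DAXX, -1.60) were the lowest, followed by ZNF644 (a partner of WIZ, -1.21), MORC4 (-1.19), CHD4 (the helicase of the NuRD complex, -1.18) and RIF1 (a regulator of replication timing, -1.14). The other 4, named after their values were seen, were HELLS (-1.11), EHMT1, the partner of EHMT2 (-1.10), and CBX5 (-1.01), all lower, and LRIF1, an HP1-binding protein, the 1 higher gene (1.07). CBX5, WIZ and HELLS were thus at least 2-fold lower in both lines, as were 657 (5.20%) of the 12644 genes compared in both. The median log2 ratio of the list was -0.25 in H1299 and -0.64 in HCT116, close to the members' medians.

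11 H3K9 demethylases, which remove the mark, were compared. At least 2-fold differences in H1299 numbered 1 upward and 1 downward; those in HCT116 numbered 0 and 2. The shares over all genes are those just given. PHF2 was lower in both lines (-1.80 in H1299 and -2.38 in HCT116), KDM7A was higher in H1299 (2.02), and KDM3B was lower in HCT116 (-1.54). PHF2 reached 100 counts in HCT116 only with DMSO (378 against 45). Of 14 KRAB zinc finger genes known to bind retroelements or imprinted regions, 13 reached 100 counts in H1299 and 9 in HCT116. In each line 4 of these were at least 2-fold higher and 0 lower, beside 18.3% higher and 7.34% lower of all genes in H1299 and 16.2% and 20% in HCT116. ZFP57 and ZNF534 in both lines and ZNF10 in HCT116 reached 100 counts only in the treated library, so that the minimum itself fixed their direction and the count of 4 is a description only. ZFP57, the imprint-binding protein, had 0 and 217 counts in H1299 (DMSO first) and 0 and 157 counts in HCT116. ZNF534 had 12 and 197 counts in H1299 and 0 and 110 counts in HCT116. ZNF10 had 709 and 3008 counts in H1299 and 0 and 388 counts in HCT116. Against a floor of 3 counts in the DMSO library, the log2 ratio of ZNF10 in HCT116 was 7.70. Unlisted features of ZNF10 with counts in that library would lower this value. A 4th gene was ZNF382 in H1299 (1.18) and ZNF91 in HCT116 (1.24).

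**Figure D4:**
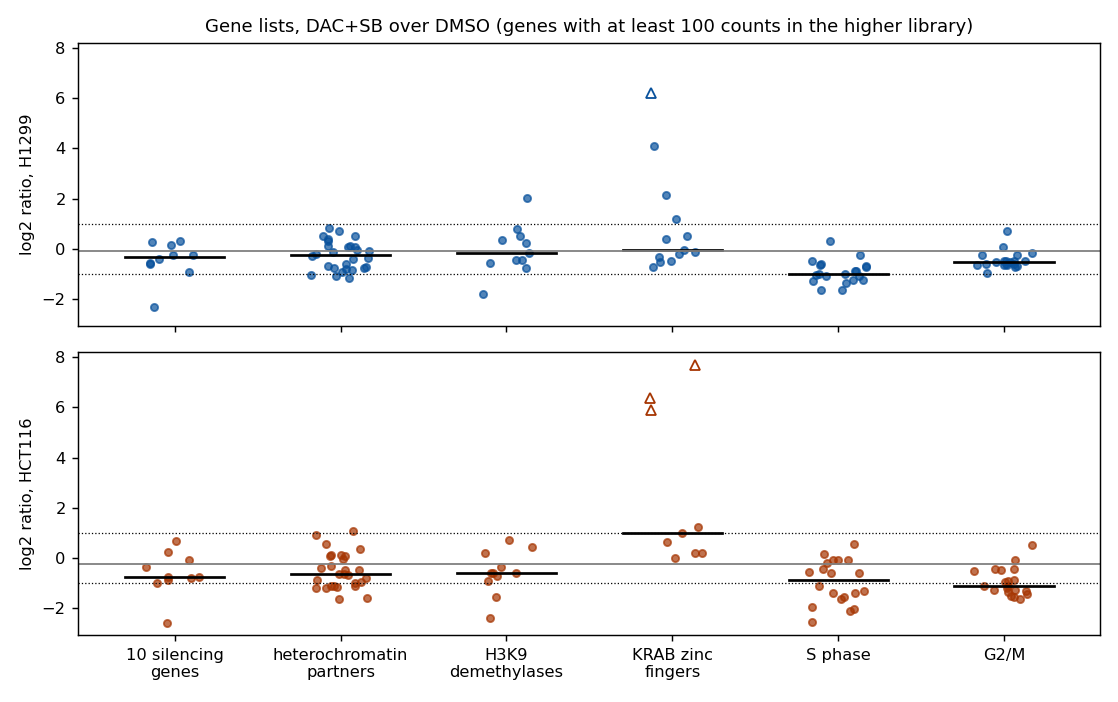
Log2 ratio of DAC+SB over DMSO for the 10 silencing genes and 5 other lists in H1299 (top) and HCT116 (bottom), 1 point per gene that reached 100 counts in the higher of its libraries. Triangles are genes with 0 counts with DMSO, drawn against a floor of 3 counts. They are not bounds, since unlisted features with counts could lower them. Thick bars are list medians, the grey line is the median of all genes and dotted lines mark a 2-fold difference. The highest points, ZFP57 and ZNF534 in both lines and ZNF10 in HCT116, are zinc finger genes that reached 100 counts only with DAC+SB. The minimum thus fixed their direction. In the S phase list 10 of 20 genes lie below the lower dotted line in each line.

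In single cells the members were sparse. After thinning to 3300 counts per cell, which left out 402 treated HCT116 cells and no others, TRIM28 was detected in 25.6% of control H1299 cells (24.2 to 27.1, Clopper-Pearson) and 18.7% of treated H1299 cells (17.5 to 20.02). In HCT116 it was detected in 46.6% of DMSO cells (45.0 to 48.2) and 28.6% of DAC+SB cells (27.2 to 30.03). Without thinning the shares were 73.8%, 56.3%, 90.3% and 52.7%, which also differ through depth. SUV39H1 was detected in 3.49%, 1.05%, 4.87% and 0.764% of thinned cells in the same order, and MPHOSPH8 in 8.94%, 11.3%, 18.7% and 28.5%. No count of any of the 10 genes was seen in 30.9%, 36.5%, 23.7% and 32.7% of thinned cells. No cells that should lack these genes were present, so a share from free RNA could not be given.

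TE counts were much higher with treatment in both lines. LTR12C, the long terminal repeat of a human endogenous retrovirus, had 186 CPM in control H1299 and 18514 CPM in treated H1299, and 314 and 26268 CPM in HCT116. The young LINE-1 families L1HS and L1PA together, the kind of element that HUSH is known to silence, had 50.4 and 229 CPM in H1299 and 29.6 and 144 CPM in HCT116. Cells of the treated HCT116 library with 0 counts of the 10 genes had a median TE share of 5.36%, and cells with 4 to 5 counts had 3.76%. In treated H1299 the medians were 2.61% and 2.09%, with overlapping middle ranges in both lines. Spearman's correlation of TE share with the members' summed count was 0.019 over 3578 cells in control H1299, -0.051 over 3726 cells in treated H1299, 0.002 over 3658 cells in control HCT116 and -0.127 over 3925 cells in treated HCT116. These are descriptions of sparse counts in cells that share a library, and they are too weak to be read as a relation. Without thinning the value for treated H1299 was -0.121. For the G2/M list the correlation with TE share was -0.303 in treated H1299 and -0.132 in treated HCT116. The S phase list stood at -0.214 and -0.076. With DMSO the G2/M list stood at -0.111 in H1299 and -0.037 in HCT116, and the S phase list at -0.047 and 0.047. The part of either list in the members' values was not tested.

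**Figure D5:**
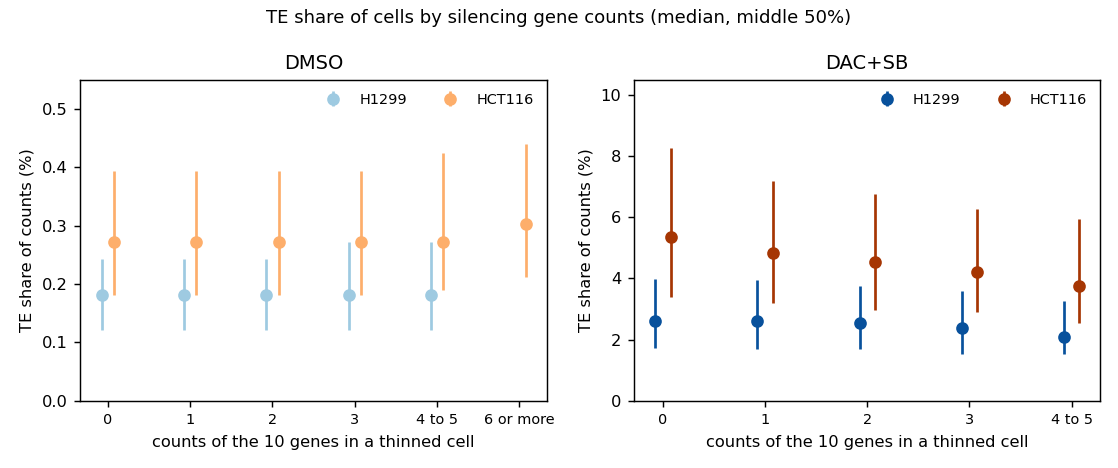
TE share of counts in thinned cells, in percent, by the number of counts of the 10 silencing genes in the cell, for DMSO (left) and DAC+SB (right); the scales differ. Points are medians over cells and bars the middle 50%; groups under 20 cells are not shown. In treated HCT116 the median goes from 5.36% to 3.76%. The DMSO medians of cells with up to 5 counts are 0.182% in H1299 and 0.273% in HCT116 throughout. These rest on a few whole TE counts per cell, so a small shift could not show.

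By GENCODE v29 on GRCh38, TRIM28 lies at chr19:58544091-58550722, SETDB1 at chr1:150926263-150964744, ATF7IP at chr12:14365632-14502935, MPHOSPH8 at chr13:19633681-19673459 and FAM208A at chr3:56620133-56683237. PPHLN1 lies at chr12:42238447-42459715, MORC2 at chr22:30925130-30968298, SUV39H1 at chrX:48695554-48709012, SUV39H2 at chr10:14878820-14904315 and EHMT2 at chr6:31879759-31897687. FAM208A, MORC2 and EHMT2 are on the minus strand. ATF7IP and MPHOSPH8 overlap no other annotated gene. TRIM28 overlaps the microRNA gene MIR6807 on the same strand, and PPHLN1 overlaps 10 others, 5 of them on its own strand, where a strand setting would not separate reads. Of the other members, SETDB1, FAM208A, MORC2, SUV39H1, SUV39H2 and EHMT2 each overlap 1 gene on the opposite strand (CERS2, CCDC66, MORC2-AS1, AC231533.1, DCLRE1C and EHMT2-AS1). Whether counting used strand is not stated in any source used here, so reads of these opposite-strand pairs may not be told apart.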

How the data were processed

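The authors deposited whole-number counts of gene features and of TE features per cell from 4 libraries of 10x Genomics 5′ single-cell RNA-seq, assigned here to lines and treatments by the labels. CASAVA, STAR and GRCh38 (hg38) are named in the submitters' processing notes. No counting tool, annotation, cell filter, use of molecular identifiers or strand setting is given in the sources used here. The members and gene lists were chosen with earlier results of these data known.

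Features naming 1 gene were summed per gene and library and divided by gene plus TE counts. No test was made, since each group was 1 library. Levels carry exact Poisson intervals, ratios exact conditional binomial intervals, and differences of ratios a normal approximation on the log scale, all 95%. Only the ratio intervals were tested on simulated data, which were drawn as Poisson counts. Genes needed 100 counts in the higher library, and counts under 3 were set to 3 in ratios. All 10 members were named, and genes of the other lists if past 2-fold (up to 6 of a list in a line, largest first); other genes are said to be named after their values were seen. No doublet caller was run, and all cells were kept (each had at least 500 counts). Python 3.11.15 with numpy 2.4.6, scipy 1.17.1 and pandas 2.3.3 was used. Alternatives changed the denominator, features, cells, thinning and thresholds.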

Additional observations from a re-analysis of the deposited data

Results flagged for a closer look

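2 genes moved in opposite directions with treatment in the 2 lines. EHMT2 was higher in H1299 (log2 ratio 0.26) and lower in HCT116 (-0.77), a difference of 1.03. MORC2 was lower in H1299 (-0.25) and higher in HCT116 (0.22), a difference of -0.48 (-0.4762 before rounding, interval -0.71 to -0.24). Among cells with under 10 counts of the G2/M list, thinned to 3300 counts, the MORC2 log2 ratio was -0.65 (-1.12 to -0.18) in H1299 and 0.59 (0.19 to 1.002) in HCT116. Among cells with 10 or more it was 0.06 (-0.76 to 0.87) and -0.50 (-1.49 to 0.39), from 13 to 57 counts a library, and both intervals include 0. This split was chosen after seeing the data. Of 12644 genes, 18.0% had a lower difference than MORC2, and 85.3% had a lower one than EHMT2. With 1 library per line and treatment the differences between the lines were not tested, and the intervals cover counting error only. For EHMT2 the H1299 direction was that of its numbered feature (1.49), while its feature without a number was at -0.28.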

How the results depend on the processing

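The SUV39H1 log2 ratio ranged from -2.33 to -2.08 in H1299 and from -2.65 to -2.34 in HCT116 over the alternative denominators, features and cell filters. It was -1.16 in H1299 cells with 10 or more G2/M counts. The analyses of numbered and unnumbered features and of G2/M levels were chosen after seeing the data. Members at least 2-fold lower in HCT116 numbered 1 in place of 2 with gene counts only, beside 17.7% of all genes. This was also so with the median of all genes set to 0 (13.8%) and with a mean over cells (20.5%). It was so without the 5% of cells with most counts (20.4%) and with numbered features only (16.9%). At a 4-fold threshold 1 was lower, beside 3.69%. In each of these FAM208A was the member lost. With features without a number only, 3 members were at least 2-fold lower in HCT116, with SETDB1 (-1.01) added, beside 25.7% of all genes (3035 lower). At a 1.5-fold threshold 4 members were lower in H1299, beside 21.3% of all genes, and 6 were lower and 1 higher in HCT116, beside 35.2% and 22.7%. With numbered features only (listed in both libraries), 6 members could be compared in H1299 and 8 in HCT116. TRIM28 and MORC2 had no such feature, and those of SETDB1 and SUV39H1 were not listed in treated H1299. Of the members compared, 1 was higher in each line (beside 14.6% of all genes in H1299 and 15.4% in HCT116). In H1299 1 was lower (SUV39H2, beside 7.90%). The medians of the members compared were 0.26 in H1299 and -0.24 (-0.2357) in HCT116. With the median of all genes set to 0, the HCT116 median of the members was -0.53 (-0.5336).

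Over all genes, those at least 2-fold higher numbered 2673 in H1299 and 2192 in HCT116, and those lower 1072 and 2706. At a 4-fold threshold 1612 were higher and 51 lower in H1299, and 1304 and 500 in HCT116. At 1.5-fold 3106 were lower and 3636 higher in H1299, and 4762 and 3070 in HCT116. With at least 20 counts 5701 were higher in H1299 and 5014 in HCT116, and with at least 1 count 8639 and 9638, with 2092 lower in H1299. In HCT116 features without a number gave 1200 higher, and numbered features gave 1350 higher and 1487 lower there, and 1148 and 620 in H1299. Without thinning the Spearman correlation of TE share with the members' counts in treated H1299 was -0.121. The cause of these shifts was not tested, beyond the change in the genes or counts compared. No paired analysis was possible because each group was 1 library.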

Other observations

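The share of a gene's counts held by numbered features differed between libraries for genes in general. Over 8896 genes the median share was 31.7% in control H1299, 35.6% in treated H1299, 43.8% in control HCT116 and 50.2% in treated HCT116. Of the 8057 genes with at least 1000 counts in a library, 88.3% had a numbered feature listed, unlike TRIM28, which had none with up to 12667 counts.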
